A study of Mus musculus with 6 samples.

Results

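Of the 1752 named antisense probes on a custom mouse array, 153 were laid over bases that the sense probe of the same gene also covers, so that both strands were read at one spot of the transcript. A probe was taken into this group when at least 4 different 12-base stretches of its sequence also occurred in the reverse-complemented sequence of a sense probe with the same gene accession. The 153 antisense probes faced 145 sense probes of 145 genes. No measured value entered this choice.

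RNA from 4 mammary tumors and 2 normal mammary glands of GRS/A mice was hybridised, 1 array per sample. GRS/A is a strain in which mouse mammary tumor virus (MMTV) induces mammary tumors, and both groups came from this strain with no other treatment, genotype or age given in the labels. The cDNA was made with random primers and labelled with 1 dye, Cy3, and each probe was 60 bases long. The titles name mammary tissue while the extraction protocol in the labels names brain, and nothing in the labels ties the samples to separate mice, so p-values measure only the spread between these samples, which may be technical.

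Natural antisense transcripts are RNAs made from the strand opposite to a gene. They can overlap the messenger RNA at its head, at its tail or within it, and several are known to alter chromatin or transcription at the locus they share with the sense gene. A probe with the sequence complementary to an mRNA, called an artificial antisense sequence (AFAS) probe, reads such RNA without prior knowledge of an antisense cDNA. The question put to these pairs was whether the antisense signal and the sense signal of the same stretch differed between tumor and normal gland.

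Signals are the scaled intensities of the authors' value table, in arbitrary units, in which 5 is the floor given to spots that were lower or not distinct from background. Tumors 3 and 4 shared a slide, and no slide was known here for either gland. Tumor 1 had 0 of the 153 antisense probes at the floor, against 15 to 27 in the other tumors and 32 and 47 in the normal glands. On the sense strand, 3 of 14 epithelial markers had a probe (Krt14, Esr1 and Prlr), and the lowest signal of these was 504. The Prlr signal was 1512 to 29641 in tumors and 504 and 544 in normal glands. Krt14 and Esr1 overlapped between the groups, with Esr1 at 731 to 7584 in tumors and 4339 and 5416 in normal glands. No gene of the brain or fat marker lists had a named sense probe, so these tissues were not tested. Of 8 immune markers 3 had a probe, with Lck at 583 to 951 in tumors and 323 and 331 in normal glands and Fcgr2b and Cd86 overlapping between the groups. Of 6 endothelial markers 2 had a probe. Pecam1 overlapped between the groups, and Kdr gave 573 to 717 in tumors, above 357 and 557 in normal glands. The part of cell makeup in the results was not tested.

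The sequences below show 30 of the 60 bases of the probes on which the results turn, 5′ to 3′, with capitals on the bases of the printed antisense part that are reverse complements of the capitals of the printed sense part. Pairs are given in the order of overlap, from probes that cover the same 60 bases (Ccl4, a chemokine gene, and Gdnf, a neurotrophic factor gene) through those with short overhangs to the shortest overlap, that of Erf.
Ccl4 antisense: TGAAAATGCATGAAATCAATTTCACAGTCA
Ccl4 sense: TGACTGTGAAATTGATTTCATGCATTTTCA
Gdnf antisense: GAAACGTGGGTCTTTAGGGCCACGGAAGGG
Gdnf sense: CCCTTCCGTGGCCCTAAAGACCCACGTTTC
Cyp1a1 antisense: tCATTCCTTTACTCTAGACCTGGTTTTACT
Cyp1a1 sense: cAGTAAAACCAGGTCTAGAGTAAAGGAATG
Rps29 antisense: CATTCAAGGTCGCTTAGTCCAACTTAAtga
Rps29 sense: TTAAGTTGGACTAAGCGACCTTGAATGgat
Hsp90ab1 antisense: CCAGACTGAGAGGTGTGATAGCGAAGgagc
Hsp90ab1 sense: CTTCGCTATCACACCTCTCAGTCTGGagat
Chrnd antisense: GGTTGACGATGAAGTTTGCCCCATCcacag
Chrnd sense: GATGGGGCAAACTTCATCGTCAACCatatg
Map2k4 antisense: tcagggttACAAATTGTGGTAAGTAGCATC
Map2k4 sense: ttaccaggGATGCTACTTACCACAATTTGT
Prtn3 antisense: TTGTTCTGGAAGACCTGACTgatggtgaac
Prtn3 sense: AGTCAGGTCTTCCAGAACAAttacaacccc
Zfp36 antisense: gcttcgaccaCCGGACACTGAACTTCAGGG
Zfp36 sense: ttttactagaCCCTGAAGTTCAGTGTCCGG
Tank antisense: CGTGATTTAAGTCTCCCCATtaaagtgtgt
Tank sense: ATGGGGAGACTTAAATCACGtttgaaaaca
Bmp1 antisense: CCGAGTTGTCTGAGTAGAAGcgcaagaaca
Bmp1 sense: CTTCTACTCAGACAACTCGGtacagaggaa
Erf antisense: gacaagactacggAAAGCCAGAAACCTTAA
Erf sense: tcagagctgatgaTTAAGGTTTCTGGCTTT

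Cd2, a T cell and natural killer cell adhesion receptor gene, had 2 antisense probes over 1 sense probe, and the pair is shown because their signals differed although they share 38 bases and are shifted by 22. The first covers 58 bases of the sense probe and the second 36, and the capitals mark what each printed part pairs with in the printed sense part.
Cd2 first antisense: CATACACCATTACATTATAGGTGCCACTgt
Cd2 second antisense: ATTACATTATAGGTGCCACTgtcgtttctc
Cd2 sense facing the first: AGTGGCACCTATAATGTAATGGTGTATGgc
Cd2 sense facing the second: AGTGGCACCTATAATGTAATggtgtatggc

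The overlaps ran from 17 to 60 bases with a median of 56, and all 7746 overlapped bases were exact complements without a gap. Both probes covered the same 60 bases in 32 pairs. The antisense probe reached past the 5′ side of the sense probe in 81 pairs and past its 3′ side in 40. Overlaps of fewer than 30 bases occurred in 13 pairs. Base composition was alike on both strands, with a median of 45% G and C among the antisense members, among the other antisense probes and among the overlapped sense probes. The polyadenylation hexamer AATAAA, read in the sense direction, lay in 7 of the 145 sense members (4.83%) and in 4.63% of the other sense probes. Its reverse complement TTTATT lay in 8 of the 153 antisense members (5.23%) and in 1.63% of the other antisense probes. The opposite orientation of the hexamer was found in 3.45% of the sense members and in 2.61% of the antisense members.

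The rule had few cases near its limit. The members with the shortest overlaps were Erf with 17 bases, Inha and Cct3 with 18, and Kit and Pou5f1 with 19. Just outside it stood Klf2 and Tsn, whose probes shared 14 bases, and Mapre1 with 13. Among these, the antisense signal of Klf2 was 16.5 to 66.7 in tumors and 49.0 and 56.3 in normal glands, and that of Mapre1 was 808 to 1340 in tumors and 799 and 939 in normal glands. Inside the limit, the antisense signal of Kit, a receptor tyrosine kinase gene, was 143 to 454 in tumors and 162 and 317 in normal glands. Its sense probe gave 3302 to 40956 in tumors and 2417 and 3825 in normal glands.

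Antisense signal was recorded for most members. On the 4 tumor arrays, for which scanner files were analysed, 124 of the 153 antisense members were called positive and significant on every array. The share was 100% in tumor 1 and 90.2%, 90.8% and 85.6% in tumors 2, 3 and 4. Its mean of 91.7% ± 6.02 (SD, n = 4) stood beside 89.8% ± 6.44 for the antisense probes that do not overlap. The difference of 1.91 percentage points was positive in 3 of 4 arrays (p = 0.25, exact sign-flip permutation test, two-sided, with 0.125 the smallest p that 4 arrays allow). The overlapped sense probes were called in 98.1% ± 1.31 against 98.6% ± 0.731 for the other sense probes, higher in 1 of 4 arrays (p = 0.25, the same exact test). A signal of at least 100, the level the study used for a prominent signal, was reached by 40.5% to 52.3% of the antisense members on the 6 arrays and by 35.4% to 46.8% of the other antisense probes. It was reached on all 6 arrays by 52 antisense members and by 92 sense members, and on both strands by 40 pairs.

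The median antisense signal of the members was 92.5, 104, 69.2 and 54.6 in tumors 1 to 4, with 87.4 and 75.04 in the normal glands. The other antisense probes had medians of 89.7, 69.9, 51.4 and 48.5 in the tumors and 56.5 and 49.9 in the normal glands. The members lay higher on 6 of 6 arrays, by 0.40 on average on the log2 scale (p = 0.03125, exact sign-flip permutation test over arrays, two-sided, the smallest p that 6 arrays allow). Against the 402 other antisense probes of the same 145 genes the difference was 0.08 and positive in 4 of 6 arrays (p = 0.4375, exact). Every array holds the same probes. These p-values, and those of the detection shares, thus measure how a difference repeats over arrays, not over a choice of probes. Names ending in 00 made up 71.2% of the members and 20.6% of the other antisense probes, and the part of this in the levels was not tested. The difference from all other antisense probes averaged 0.30 ± 0.24 (SD, n = 4) over the tumors and 0.61 ± 0.03 (SD, n = 2) over the glands (p = 0.133, exact permutation test with 15 possible splits, where 0.0667 is the smallest p). The sense members had medians of 522 to 827 in tumors and 320 and 394 in normal glands.

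The ranks of the antisense and sense signals were set side by side as a description, without a test. Over the 153 pairs, Spearman's rho between the strands was 0.17 to 0.35 on the 6 arrays. Over the 402 pairs of the same sense probes with antisense probes elsewhere on the transcript it was -0.02 to 0.02. In the 32 pairs of exact complements it was 0.03 to 0.46. These correlations run across probes of 1 array, which share the library, and paired probes share base composition. The rank correlation of signal with the percentage of G and C was 0.00 to 0.16 in the antisense members and 0.02 to 0.11 in the sense members, and the part of composition in the agreement of the strands was not tested.

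The 5 antisense members with the highest minimum over the arrays belonged to genes of unlike roles, and each gave at least 1093 on all 6 arrays. Antisense probes elsewhere on these transcripts were dimmer, but the 5 were chosen for high signal, so this does not compare overlapping probes with others. The highest signals elsewhere were 188 for Sox3, 787 for Bax, 172 for Gzmc, 607 for Itga3 and 525 for Gnb2. Sox3, a transcription factor gene of neural development, gave antisense signals of 7665, 3509, 5837 and 3935 in the tumors and 3639 and 3667 in the normal glands. Bax, which promotes apoptosis, gave 7674, 11422, 2356 and 6983 in the tumors and 5532 and 3464 in the normal glands. The groups overlapped for both genes, with tumor 3 lowest for Bax. Gzmc, a granzyme gene of cytotoxic lymphocytes, gave antisense signals of 1742, 6097, 6081 and 4156 in the tumors and 5336 and 3368 in the normal glands. Its sense probe gave 159, 45.0, 68.7 and 76.7 in the tumors and 97.3 and 101 in the normal glands. Neither strand of Gzmc separated the groups. Itga3, an integrin subunit gene, ranged from 1276 to 2243 on the antisense strand over the 6 arrays. Gnb2, a G protein subunit gene, had antisense signals of 1359, 2786, 1093 and 2479 in the tumors, all below 3352 and 3159.9 in the normal glands, while its sense signals of 2136 to 6440.0 in the tumors all lay above 1038 and 1134. The difference between these opposite shifts was -2.39 ± 0.92 (log2, SE) and did not pass the test (adjusted p = 0.146, limma).

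No antisense member changed past the threshold. By limma over all 1750 antisense probes in the table, 0 of the 153 members had an adjusted p under 0.05, against 8 probes or 0.457% of all tested, and the smallest adjusted p among members was 0.124. At an unadjusted p under 0.05, 16 members (10.5%) were higher in tumors and 8 (5.23%) lower, against 13% and 3.26% of all antisense probes. The methods' t-test on log2 signals gave 14 higher and 2 lower at an unadjusted p under 0.05, and on linear signals 6 higher and 7 lower, with 0 after adjustment on either scale. Every tumor lay above both normal glands for 25 members (16.3%), against 21.6% of all antisense probes, and below both for 12 (7.84%), against 6.91%. The median log2 difference, tumor minus normal gland, was 0.25 for the members and 0.44 for all antisense probes. Other scalings turned its sign for the members, to -0.13 at the 75th percentile, -0.01 at the median and -0.25 after quantile normalization, where all antisense probes had 0.07, 0.20 and -0.12. In bulk tissue, fewer cells of a type and less RNA per cell cannot be told apart.

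Among antisense signals higher in tumors, the smallest p values were those of Map2k4, Tank and Bmp1. Map2k4 encodes a kinase that activates stress-activated protein kinases, and its antisense signals were 135, 100.2, 130.0 and 100.2 in the tumors against 30.7 and 34.7 in the normal glands. The difference was 1.82 ± 0.37 (log2, SE) with an adjusted p of 0.124. Tank, whose product binds TRAF proteins in NF-kappaB signalling, gave 1694, 1183, 3922 and 1529.5 in the tumors against 332 and 219 in the normal glands. For Tank the difference was 2.79 ± 0.58 with an adjusted p of 0.124. All 4 tumors lay above both glands on the overlapping antisense probe in both genes, while the sense signals of each gene overlapped between the groups. The sense probe of Tank gave 2507, 3139, 3098 and 1909 in the tumors and 2241 and 893 in the normal glands, and that of Map2k4 ranged from 1230.1 to 15119 in the tumors beside 1627 and 2975. The other antisense probes of Tank, away from the sense probe, gave at most 24.9 on any array. Those of Map2k4 did not share 1 direction. One gave 67.9, 73.8, 89.2 and 123 in the tumors, all below 162 and 210 in the normal glands. Another gave 489, 235, 174 and 281 in the tumors, all above 125 and 79.4. A dimmer one, at 35.2 to 59.3 in the tumors, lay above 5 and 33.0, and the last overlapped between the groups.

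Among antisense signals lower in tumors, the smallest p values were those of Ccl4, Cd2 and Gdnf, and for Ccl4 and Cd2 tumor 2 stood with the normal glands. One antisense probe of Ccl4 gave 289, 3879, 161 and 272 in the tumors against 7353 and 11179.6 in the normal glands. A second spot of the same sequence gave 246, 3772, 137 and 275 in the tumors against 7342 and 9429. The sense probe over the same 60 bases gave 50.5, 5.34, 7 and 5 in the tumors and 18.6 and 5 in the normal glands. The antisense difference of the first spot was -4.27 ± 1.29 (adjusted p = 0.197), and without tumor 2 both Ccl4 spots and the first Cd2 probe passed the threshold (adjusted p = 0.0333). The 2 antisense probes of Ccl4 that do not overlap gave 55.9 to 2115 in the tumors and 141 to 405 in the normal glands, and neither was lower in tumors by its fitted difference.

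The first antisense probe of Cd2 gave 522, 4487, 443 and 382 in the tumors against 8043 and 9754 in the normal glands, a difference of -3.48 ± 1.06 (adjusted p = 0.201). The second, shifted by 22 bases as printed above, gave 53.2, 62.5, 46.8 and 30.1 in the tumors and 51.2 and 37.5 in the normal glands, with a difference of 0.09 ± 0.45. The sense probe gave 85.5, 259.7, 78.2 and 171 in the tumors and 156 and 70.4 in the normal glands. So 2 antisense probes with 38 bases in common read far apart, and only the first separated the groups. Gdnf was near the floor, at 29.9, 16.9, 8.65 and 5 in the tumors against 58.2 and 78.0 in the normal glands. After quantile normalization, Gdnf was the 1 member that passed (adjusted p = 0.0457), and with a floor of 20 it was Pecam1, named here after its values were seen (adjusted p = 0.0234). Pecam1, an endothelial adhesion gene, gave antisense signals of 426, 393, 383 and 395 in the tumors against 192 and 175 in the normal glands.

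Grouped by textbook role, the antisense signal lay above both normal glands in every tumor for 12 of 33 genes of transcription factors and other nuclear proteins, with a median log2 difference of 0.66. It did so for 5 of 22 genes of kinases and intracellular signalling, and for 0 of the 26 probes of ligands and other secreted signals. Of these 26, 4 lay below both glands, among them both Ccl4 spots, which have 1 sequence. These counts hold for the deposited scaling and are descriptions, beside 21.6% of all antisense probes above both glands and 6.91% below both. The overlapping antisense probe of Ski, a corepressor of Smad proteins, gave 71.7, 17.0, 12.1 and 98.4 in the tumors with both normal glands at the floor. Nr2c2, an orphan nuclear receptor gene, had antisense signals of 324, 148, 142 and 303 in the tumors above 114 and 87.1, and sense signals of 3043, 3549.8, 2797 and 2616 below 6115 and 8435. Neither probe of this Nr2c2 pair passed the test (adjusted p = 0.359 and 0.0750). Of 3 antisense probes elsewhere on the Nr2c2 transcript, one passed by limma (adjusted p = 0.0273), with 102, 91.2, 75.4 and 170 in the tumors and both glands at the floor.

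On the sense strand 18 of the 145 overlapped probes were called higher in tumors and 0 lower by limma over all 404 sense probes, which is 12.4% of the members against 14.4% of all sense probes. At an unadjusted p under 0.05, 46 members were higher (31.7%, against 36.4% of all sense probes) and 5 lower (3.45%, against 1.98%). Every tumor lay above both glands for 55 members (37.9%, against 42.6%) and below both for 7 (4.83%, against 3.47%). In all 18, every tumor lay above both normal glands. The fitted log2 differences ran from 1.93 to 3.97, and for 2 of the 18, Cyp1a1 and Il10, both glands were at the floor. The median over the members was 0.80 and over all sense probes 0.91, and scaling to the 75th percentile lowered these to 0.40 and 0.51. The number of calls changed with the scaling and when 1 array was left out, which also leaves fewer samples. The part of any single array in the calls was not tested. No member was called without tumor 1, without tumor 4 or without normal gland 2, and 4 were called without normal gland 1. Scaled to the 75th percentile of each array, 3 were called higher and 1 lower, of which 3 were among the 18, and after median scaling 7 higher and 1 lower, of which 7 were.

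The largest set of calls, 5 of 19 genes, lay among enzymes, chaperones, ribosome, cytoskeleton and proteolysis. Counts of sense calls by role, here and below, are descriptions, beside 14.4% of all sense probes called higher. Hsp90ab1, a cytosolic chaperone gene, gave sense signals of 15406, 19064, 15550.5 and 16350.1 in the tumors against 3328 and 1843 in the normal glands, a difference of 2.74 ± 0.45 (adjusted p = 0.0207). Its antisense probe gave 228, 289, 77.4 and 43.7 in the tumors and 248 and 168 in the normal glands. Sense signal was thus higher in every tumor, while the antisense values of the groups overlapped. Rps29, a protein of the small ribosomal subunit, gave sense signals of 91576, 55138, 109666 and 79219 in the tumors against 15813 and 14378 (2.43 ± 0.46, adjusted p = 0.0239). Antisense Rps29 gave 178, 59.8, 46.5 and 81.3 in the tumors and 91.6 and 57.5 in the normal glands. Also called were Rpsa, another ribosomal protein, with normal gland 2 at the floor (2.52 ± 0.65, adjusted p = 0.0414), and Gpx3, a secreted glutathione peroxidase (2.51 ± 0.66, adjusted p = 0.0436). Ribosomal protein genes have many processed copies in the mouse genome, and whether the probes read them was not tested.

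Cell cycle, DNA repair and apoptosis genes had 4 calls among 13, all higher on the sense strand. Bcl2l2, which restrains apoptosis, gave sense signals of 1187, 786, 475 and 1814 in the tumors against 235 and 70.4 in the normal glands (2.88 ± 0.72, adjusted p = 0.0414). Xrcc5, the Ku80 subunit of DNA end joining, gave 506, 431, 1068 and 1466 in the tumors against 176 and 119 (2.40 ± 0.62, adjusted p = 0.0414). Ube2b, a ubiquitin-conjugating enzyme of DNA repair, and Ccng2, a cyclin linked to cell cycle arrest, were higher by 2.25 ± 0.57 and 1.94 ± 0.50. Their antisense signals were low or overlapped between the groups. Antisense Bcl2l2 gave 28.1, 8.63, 7.58 and 5 in the tumors and 25.9 and 5 in the normal glands, and antisense Xrcc5 was at the floor on every array but tumor 1, where it gave 6.94.

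Among kinases and intracellular signalling, 3 of 22 genes were called. Ywhaz, the zeta isoform of the 14-3-3 adaptor proteins, gave sense signals of 6172, 4273, 4352 and 9219 in the tumors against 1274 and 796 in the normal glands (2.50 ± 0.51, adjusted p = 0.0299). Csk, a kinase that holds Src family kinases inactive, gave 2373, 1734, 2449 and 3892 in the tumors against 583 and 447 (2.29 ± 0.48, adjusted p = 0.0299). Tnfaip3, which restrains NF-kappaB signalling, was higher by 1.93 ± 0.49. The Csk probes cover the same 60 bases, and the antisense probe gave 185, 404, 218 and 209.9 in the tumors and 242 and 353 in the normal glands, with the groups overlapping. In transcription factors and other nuclear proteins the calls were Zfp36, Ski and Gata3, 3 of 33 genes. Zfp36 encodes a zinc finger protein that promotes decay of AU-rich mRNAs, and its sense signals of 6182, 4388, 4398 and 6002 in the tumors stood against 1078 and 413 in the normal glands (2.95 ± 0.52, adjusted p = 0.0215).

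Zfp36 was 1 of the 2 genes among the 18 whose overlapping antisense probe also lay above both glands in every tumor, with 73.4, 45.9, 44.6 and 52.7 in the tumors against 19.3 and 5. The other was Ski, but its antisense probes elsewhere on the transcript did not share 1 direction. One gave 1292, 1118, 851 and 1065 in the tumors, all below 2115 and 1762 in the normal glands. Dimmer ones, at 5.92 to 67.6 in the tumors, lay above glands at the floor, and another overlapped between the groups. The antisense difference of Zfp36 was 2.43 ± 0.62 (adjusted p = 0.172). Of its 3 antisense probes elsewhere on the transcript, one gave 41.9, 38.9, 23.4 and 27 in the tumors with both normal glands at the floor (adjusted p = 0.0627). Gata3, a transcription factor of luminal mammary epithelium, gave sense signals of 8689, 2843, 3818 and 13713 in the tumors against 1082 and 969 (2.55 ± 0.70, adjusted p = 0.0483), and antisense signals of 24.9 to 94.5 in the tumors beside 54.3 and 73.8.

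Among 34 receptor and membrane protein genes, Slc2a1 and Ifnar1 were called. Slc2a1, the glucose transporter GLUT1, gave sense signals of 4622, 1035, 7021 and 10243 in the tumors against 344 and 221 in the normal glands, the largest difference among the calls (3.97 ± 0.90, adjusted p = 0.0341). Ifnar1, a subunit of the type I interferon receptor, gave 329, 350.1, 282 and 486 in the tumors against 102 and 41.9. The antisense probe of Slc2a1 gave 23.8, 6.28, 14.4 and 5 in the tumors, with both glands at the floor. Il10, an anti-inflammatory cytokine gene, was the 1 call among 24 ligand genes, at 21.9, 37.4, 15.7 and 27.5 in the tumors with both normal glands at the floor. Because the glands have only a bound there, no fold is given for Il10, and with a floor of 20 it was no longer called. Of the genes lower in tumors on the sense strand by the smallest p, Bmp1, Nr2c2 and Il4, a T helper cytokine gene, had adjusted p values of 0.0533, 0.0750 and 0.100.

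Across the 18 pairs with a call on the sense strand, the antisense differences ran from -1.72 to 2.79 with a median of 0.19. No overlapping antisense probe of these pairs exceeded 488 on any array. Elsewhere on some of these transcripts antisense probes were brighter, with one of Hsp90ab1 at 3627 to 12025 over the 6 arrays. For Bcl2l2 one such probe gave 4839 to 26698, while another gave at most 11.2. In 6 of these 18 both glands had antisense signals at the floor. The smallest antisense adjusted p among them was 0.172. By the lists of cancer-related genes, which hold 57 of the 145 genes, sense calls were 2 of 6 apoptosis genes, 2 of 8 transcription factors, 2 of 13 cytokines, chemokines and their receptors, 1 of 8 non-receptor kinases and phosphatases and 1 of 5 genes of cell cycle and genome maintenance. None was called among 7 receptor tyrosine kinases and ligands, 3 genes of TGF-beta, Wnt, Notch and Hedgehog signalling, 3 G protein-coupled receptors and 4 genes of adhesion and proteolysis. These list counts are descriptions as well, beside 14.4% of all sense probes called higher. By limma 0 of the overlapping antisense probes in these lists were called.

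The change on the antisense strand minus the change on the sense strand was tested within arrays, where the affinity of each probe cancels. By limma over all 1283 pairs of an antisense and a sense probe of 1 accession, 4 of the 153 overlapping pairs passed (2.61%), against 4.29% of all pairs. Of the 4, 2 had a higher antisense than sense change (0.701% of all pairs did) and 2 a lower one (3.59% of all pairs). At an unadjusted p under 0.05, 9 pairs were higher (5.88%) and 21 lower (13.7%), against 5.53% and 18.8% of all pairs. The median over the overlapping pairs was -0.52 and over all pairs -0.46. In all 4 pairs called, 1 strand stood at the floor in both glands, as in 36 of the 153 pairs, so their fitted differences depend on the floor. None of the 4 was called with a floor of 20, after quantile normalization, or without tumor 1, tumor 4 or either normal gland, and 1 of them was called without tumor 3.

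The antisense change was the lower one in Cyp1a1 and Chrnd. Cyp1a1, an enzyme of xenobiotic metabolism, gave antisense signals of 153, 98.6, 49.3 and 72.8 in the tumors against 306 and 262 in the normal glands. Its sense probe, which faces all but 1 base of the antisense probe, gave 43.9, 19.0, 28.8 and 20.8 in the tumors with both glands at the floor. So by this pair of probes every tumor was below the glands on one strand and above them on the other. The difference of the changes was -4.13 ± 0.80 (log2, SE, adjusted p = 0.0212). Elsewhere on the transcript, one antisense probe went the other way, with 122, 104, 241 and 65.6 in the tumors, all above 51.5 and 40.6 in the normal glands. The remaining antisense probes of Cyp1a1 overlapped between the groups. The sense probe alone was called (adjusted p = 0.0299), but its fitted difference rests on the floor of the glands, and with a floor of 20 it was not called (0.43, adjusted p = 0.517). Chrnd, the delta subunit of the muscle acetylcholine receptor, gave antisense signals of 38.4, 10.1, 10.9 and 5 in the tumors beside 20.5 and 36.0, and sense signals of 34.9, 21.6, 23.3 and 9.89 in the tumors with both glands at the floor (-3.20 ± 0.80, adjusted p = 0.0490). All Chrnd signals lay under 40.

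The antisense change was the higher one in Bmp1 and Prtn3. Bmp1, a procollagen proteinase, gave antisense signals of 76.1, 19.0, 20.8 and 30.4 in the tumors with both glands at the floor. Its sense probe gave 857, 3501, 739 and 1973 in the tumors against 6804 and 9243 in the normal glands, and tumor 2 was nearest to the glands. The difference of the changes was 5.08 ± 1.07 (adjusted p = 0.0334). Of 3 other antisense probes of Bmp1, one gave at most 16.3 on any array. Another gave 685, 602, 826 and 652 in the tumors below 1794 and 2325 in the normal glands, and the last gave 7949 to 49057 in the tumors beside 41998 and 36041. Prtn3, a serine protease of neutrophils, gave antisense signals of 36.5, 14.3, 44.9 and 5 in the tumors with both glands at the floor, and sense signals of 174, 187, 526 and 37.2 beside 482 and 332 (3.22 ± 0.80, adjusted p = 0.0490).

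Pairs with measured signal on both strands came close to the threshold. For Cd2 the first antisense probe differed from the sense probe by -3.81 ± 0.95 (adjusted p = 0.0501) and the second by -0.24 ± 0.86. For Hsp90ab1 the difference was -3.48 ± 0.93 (adjusted p = 0.0539). Adora3, an adenosine receptor gene, was read by 2 antisense spots of 1 sequence, whose differences were -3.21 ± 0.91 and -3.46 ± 0.93 (adjusted p = 0.0581 and 0.0562). The first spot of Adora3 gave 69.7, 52.3, 218 and 33.1 in the tumors against 303 and 229 in the normal glands, with tumor 3 next to the glands. The sense probe gave 1005, 688, 824 and 858 in the tumors, all above 388 and 283. Elsewhere on the Adora3 transcript, a brighter antisense probe went the other way. It gave 722, 838, 1741 and 996 in the tumors, all above 583 and 429 in the normal glands, and another gave at most 16.2 on any array. Pax5, a B cell transcription factor gene and the next pair with a higher antisense change, had a difference of 2.83 ± 0.96 (adjusted p = 0.108).

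Antisense spots of 1 sequence measured the error within an array. For the 6 genes whose member sequence was spotted more than once (Actb, Adora3, Ccl4, Cd7, Cdkn2c and Flt3l), the spots differed by a median of 0.15 on the log2 scale over 48 comparisons above the floor, and at most by 0.56. Differences between samples were wider. One of 3 antisense spots of Actb, the cytoskeletal beta actin gene, gave 622, 472, 1996 and 505 in the tumors and 1025 and 518 in the normal glands, and the other spots were also highest in tumor 3. Its sense probe gave 87103 to 107595 in the tumors, above 49276 and 35114 (1.21 ± 0.42, adjusted p = 0.0799). Cdkn2c, an inhibitor of cyclin-dependent kinases, gave antisense signals of 858, 1989, 11524 and 4114 in the tumors and 2773 and 2467 in the normal glands on one spot, and 802, 1799.6, 10827 and 3808 beside 2271 and 2181 on the other. Its sense probe ranged from 1255 to 2651 over the 6 arrays. Both antisense spots of Cdkn2c were highest in tumor 3 and lowest in tumor 1. Cd7, which encodes a T cell surface protein, was likewise highest in tumor 3 on both spots (711 and 744), where its sense probe was lowest (39.5). Flt3l, a cytokine for dendritic cell progenitors, gave antisense signals of 412 to 609.7 in the tumors and 402 to 544 in the normal glands over its 2 spots, while its sense signals of 436 to 835 in the tumors all lay above 249 and 163 (1.56 ± 0.48, adjusted p = 0.0583).

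By length of overlap, the medians of the changes are given without a test. The median antisense difference was 0.25 in the pairs of 60 bases, 0.24 in those of 30 to 59 bases and 0.40 in those of fewer than 30, and the median sense differences were 0.83, 0.80 and 0.64. The median difference of the strands was -1.14, -0.38 and -0.48 in the same order. The array medians of the antisense signal were 79.5 to 195 in tumors and 94.0 and 99.2 in normal glands for the pairs of 60 bases, and 51.4 to 100.2 in tumors and 73.0 and 79.2 in normal glands for those of 30 to 59 bases. Of the 3 shortest overlaps, that of Inha, the inhibin alpha subunit gene, had groups that overlapped on both strands. Erf, an ETS-family repressor gene, had antisense signals of 178, 182, 181 and 91.6 in the tumors above 74.2 and 81.9 in the normal glands. Cct3, a chaperonin subunit gene, had sense signals of 1981, 2293, 1926 and 4641 in the tumors above 1333 and 677.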

How the data were processed

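The authors deposited Agilent Feature Extraction scanner files for the arrays (version 9.1.3.1, per the file headers, 4 tumors used here) and a value table of signal intensities for 6 arrays. Per the methods, the authors took the processed signal, set it to 5 where it was lower or not distinct from background, and scaled array means to a common reference. Saturated spots among named probes numbered 0. Probe names are lacking in this table. Each of its 2156 entries was matched to a probe through the 4 tumor columns, which equal the processed signal times 0.957, 0.822, 1.16 and 1.05. Of these, 2154 were tied, and all 153 antisense and 145 sense probes described here were among them, 150 and 144 with 1 candidate entry. Symbols came from RefSeq accessions (assembly GRCm38.p6) for 143 of the 145 genes and from the name columns of the scanner files for the others. The files name no genome build, so no coordinates are given.

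Samples were grouped by title. Tumors and glands were compared on log2 signals by moderated linear models (limma 3.58.1 under R 4.3.3), two-sided, with Benjamini-Hochberg adjustment over all tied probes of a strand or all pairs and a threshold of 0.05. Within-array differences were formed for the strand comparison. Exact tests and tables were made in Python 3.11.15 (scipy 1.17.1, pandas 2.3.3, numpy 2.4.6). A single probe tested exactly over 15 splits cannot go below 0.0667. The limma step was tested on simulated data with known log2 changes of 3. Such changes were given to 200 of 1750 antisense probes, 200 of 404 sense probes and 200 of 1283 pairs. The step recovered 56.5% of the changed antisense probes, 88.85% of the sense probes and 38.35% of the pairs. Of the calls made on simulated data, 5.95%, 2.09% and 4.96% were false, in the same order. The share of changed probes or pairs was not the same on the strands and among pairs, so these rates cannot rank them. Numbers of calls on the strands and among pairs are not directly comparable. The number of arrays limits the precision. The probes, gene lists and tests were chosen with earlier results of these data known, and the role groups after the gene names were seen. Genes named were those called, the 3 smallest p in each test and direction, the 5 antisense members with the highest minimum, the 3 longest and 3 shortest overlaps, and genes with several members. The alternatives tried were a filter at 100, a floor of 20, other scalings, robust and trended estimation, the methods' t-test, a block for the replicate number, leaving out each array, other detection criteria and stricter overlaps. Sequences are from the scanner files.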

Additional observations from a re-analysis of the deposited data

Results flagged for a closer look

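In 9 of 94 sets of 4 tumor values examined, 1 tumor stood far from the others, judged by the gap as a part of the range. The sets belong to genes named partly for a small p or a high signal, so no share by chance is set beside this count. Where the others are at the floor, any value above it meets the rule, as for antisense Tnfaip3 and Xrcc5. On the antisense strand tumor 3 was the high one for 1 spot of Actb (1845.17, others 433.87 to 553.8), for 1 spot of Adora3 (237.9, others 39.98 to 48.32) and for 1 spot of Cd7 (743.87, others 188.82 to 200.95). Tumor 2 was high for the first antisense probe of Cd2 (4486.62, others 381.86 to 522.47). Tumor 4 was low for antisense Erf (91.56, others 177.99 to 182.42), and tumor 3 was low for sense Erf (30.98, others 71.48 to 74.45). Tumor 1 was the 1 tumor above the floor for antisense Tnfaip3 (17.32) and antisense Xrcc5 (6.94), with the others at 5, and it was high for sense Ccl4 (50.52, others 5 to 7).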

How the results depend on the processing

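The median antisense difference of the members, 0.25 as deposited, turned to -0.13, -0.01 and -0.25 with 75th percentile, median and quantile scaling. Signs were followed across the settings for probes and pairs that were called or among the 3 smallest p in a test and direction. No difference of these, level or detection share changed sign under the settings run. For other named probes, some with differences near the sign change, this was not checked. Of the antisense members, 1 passed after quantile normalization and 1 with a floor of 20, while the methods' t-test, unadjusted, gave 16 on log2 and 13 on linear signals. Of the sense members, 4 passed with 75th percentile scaling, 8 with median scaling, 5 after quantile normalization and 4 among pairs of the same 60 bases. The methods' t-test gave 45 unadjusted on log2 signals and 0 adjusted on log2 or linear signals. Of the strand differences, 0 passed after quantile normalization, with a floor of 20 or among pairs of the same 60 bases, and the t-test on log2 signals gave 22 unadjusted and 0 adjusted. Leaving out 1 array at a time gave 0 to 3 antisense calls, 0 to 24 sense calls and 0 to 14 strand differences. The most came without tumor 2 (antisense and strand differences) and without tumor 3 (sense). The log2 level of the antisense members over the other antisense probes ranged from 0.36 to 0.48 without 1 array, where 5 arrays cannot reach the threshold. It was 0.17 after normexp correction of the 4 tumors (p = 0.125, exact, the smallest possible) and 0.0805 against other antisense probes of the same genes (p = 0.4375, exact). The cause of these shifts was not tested, beyond the fewer samples or probes some settings hold.

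Replicate numbers 1 and 2 occur in both groups. Deviations of same-numbered samples correlated by -0.02 and 0.05, so the numbers were not taken as pairs. With the replicate number as a block, 0 antisense members, 0 sense members and 8 strand differences passed. Among values of single named genes across the settings, 242 kept their direction and side of the threshold, 167 no longer passed and 14 came to pass. Signals near the floor limit the antisense results, since 31 antisense members were at the floor in both glands.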

Other observations

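Antisense probes elsewhere on the same transcripts gave values of their own. Among those of the genes named by rule, that of Nr2c2 given above was the 1 that passed the threshold. One antisense probe of Chrnd gave 100.48, 71, 16.83 and 148.73 in the tumors with both normal glands at the floor, so no fold is given (adjusted p = 0.170, limma), where the overlapping probe did not separate the groups. One of Flt3l gave 128.23, 674.64, 35.86 and 141.35 in the tumors, all below 1817.92 and 2142.45 in the normal glands (-3.77 ± 1.09, adjusted p = 0.193). One of Cd2 gave 3632.31 to 4219.39 in the tumors, all above 1992.8 and 1337.24 (1.28 ± 0.38, adjusted p = 0.193). The probes of Chrnd, Flt3l and Cd2 did not pass and were chosen after their values were seen. The same holds for the antisense probes given above elsewhere on Adora3, Cyp1a1, Map2k4 and Ski.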
